A study of Mus musculus with 72 samples.

Results

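The genes described here make up the activating arm of the circadian clock and the interlocked loop of REV-ERB and ROR nuclear receptors: Arntl, Clock, Npas2, Nr1d1, Nr1d2, Rora, Nfil3 and Cry1. They were taken by symbol from a table of RNA counts over 20105 genes, and 7 of the 8 named genes have a row there. Clock was not analysed here. All 7 genes passed the filter on low counts in both kinds of nuclei.

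RNA was sequenced from liver nuclei of 36 mice, all of the genotype CAG-Sun1/sfGFP, Albumin-Cre, in which Cre driven by the albumin promoter tags the nuclear envelope of hepatocytes. From each animal a library was made of hepatocyte nuclei bound to beads and another of whole liver nuclei, 72 libraries in 18 groups of 4. BALB/c mice of the C26 cohort carried C26 tumours and were taken in cachexia or before it (pre-cachexia), against PBS controls. C57BL/6N mice of the 8025 cohort carried 8025 tumours and were cachectic, against PBS controls. The cachectic animals of both cohorts had lost more than 10% of body weight. Tumour-bearing mice of the NC26 cohort (BALB/c) and of the MC38 cohort (C57BL/6N) kept their weight and were each set against their own PBS controls. Every liver was taken at Zeitgeber time 9 (ZT 9, in hours after lights on). Ages and the time of the pre-cachexia harvest are not in the labels, and cohort and kind of tumour coincide. With 1 time of day, a change in the level of a rhythmic gene and a change in the timing of its rhythm cannot be told apart. In whole liver nuclei, fewer cells of a type and less RNA per cell cannot be told apart either.

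The clock is a feedback loop of transcription. BMAL1, the product of Arntl, pairs with CLOCK or with its relative NPAS2, and the pair binds E-box sequences and switches on the PER and CRY repressors, which in turn block it. The same pair drives Nr1d1 and Nr1d2, which encode REV-ERB-alpha and REV-ERB-beta, repressors that bind a short element shared with the activating ROR receptors. Arntl, Npas2, Nfil3 and Cry1 are known targets of that element, so in mouse liver they are low when REV-ERB proteins are high. NFIL3 represses genes with a D-box, the sequence through which DBP, TEF and HLF activate them.

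The start-site regions of 3 of these genes and a short stretch of Arntl are shown because they carry the short elements through which the loop is known to act. Sequences are from RefSeq on GRCm38.p6 (mm10), 5′ to 3′ on the strand of the gene, with motifs matched on either strand in capitals, so that TGACCTA and AACGTG are TAGGTCA and CACGTT read on the other strand. The searched letters, on both strands, were TAGGTCA for the element of REV-ERB and ROR, CACGTG for the E-box, CACGTT for a variant E-box and TTATGTAA for the D-box. The stretch of Arntl is chr7:113207530-113207559 on the plus strand, downstream of the later of 2 annotated start sites. The other 3 are the 250 bases before the start site of Nfil3 (chr13:52981040-52981289), Nr1d1 (chr11:98775378-98775627) and Cry1 (chr10:85185055-85185304), all on the minus strand.
Arntl: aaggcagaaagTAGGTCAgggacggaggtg
Nfil3: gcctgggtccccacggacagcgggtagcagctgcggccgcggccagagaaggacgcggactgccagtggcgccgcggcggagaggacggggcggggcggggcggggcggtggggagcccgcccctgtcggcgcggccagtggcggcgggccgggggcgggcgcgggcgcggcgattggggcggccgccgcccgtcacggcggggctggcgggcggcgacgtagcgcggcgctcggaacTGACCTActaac
Nr1d1: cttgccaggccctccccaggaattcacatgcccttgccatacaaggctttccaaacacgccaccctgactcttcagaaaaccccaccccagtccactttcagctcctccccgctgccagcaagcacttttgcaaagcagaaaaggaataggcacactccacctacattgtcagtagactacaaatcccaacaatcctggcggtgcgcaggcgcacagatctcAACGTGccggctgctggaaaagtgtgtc
Cry1: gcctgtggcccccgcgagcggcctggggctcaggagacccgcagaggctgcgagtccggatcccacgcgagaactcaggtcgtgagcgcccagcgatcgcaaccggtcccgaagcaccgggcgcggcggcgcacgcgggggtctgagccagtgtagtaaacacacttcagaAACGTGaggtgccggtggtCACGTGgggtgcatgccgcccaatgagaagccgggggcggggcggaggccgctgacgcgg

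In windows from 250 bases before to 50 after each start, Arntl held the REV-ERB and ROR element from base 31 after its later start site, and the window of its earlier start held none of the 4 motifs. Nfil3 held the same element beginning 12 bases before its start. Cry1 held an E-box at base -60 and a variant E-box at -79, and Nr1d1 a variant E-box at -28. No searched motif was found in the windows of Npas2, Nr1d2 and Rora, which says only that these letters are not there. Among 32851 RefSeq windows of the same length, 2.61% held the REV-ERB and ROR element, 7.15% the E-box, 4.68% the variant E-box and 0.938% the D-box. A match is a description of the sequence and no measure of binding.

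The counts cover the gene with its introns, so longer genes collect more reads. On mm10, Rora spans 734 kb (chr9:68653786-69388246), of which 1.78% is exon, and Npas2 spans 169 kb (chr1:39194272-39363240), of which 2.63% is exon. Arntl spans 107 kb (chr7:113207465-113314126), Cry1 53.4 kb (chr10:85131700-85185054) and Nr1d2 35.1 kb (chr14:18204056-18239106). Nfil3 spans 13.8 kb (chr13:52967209-52981039) and Nr1d1 7.45 kb (chr11:98767932-98775377), of which 41.3% is exon. Whether strand was used in counting is not stated. Reads from antisense genes that GENCODE places within Arntl (Gm45355, 2394 bases) and Rora (Gm15511, 15359 bases), and from Thra where it overlaps Nr1d1 by 1075 bases, may therefore be counted with these genes. Processed pseudogenes lie inside Npas2.

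Hepatocyte libraries held 8.49 to 56.4 M counts (mega, median 26.1 M) and whole liver libraries 12.2 to 30.3 M (median 20.1 M). Npas2 was the thinnest of the 7 genes, with 4 to 213 counts per hepatocyte library (median 24), while Arntl had at least 82 counts in each and Rora at least 5095. Values below are CPM, counts per M counts of the library, whose size was scaled by the trimmed mean of M-values, and errors are SD over 4 animals. A gene is called changed at an adjusted p under 0.05 in edgeR's quasi-likelihood test with Benjamini-Hochberg adjustment over all genes tested. The labels give each animal its own number, so within each kind of nuclei p-values measure the spread between animals, estimated jointly over the 9 groups. The main tests of hepatocyte against whole liver nuclei had no animal block and took both libraries of an animal as independent.

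Per kilobase of gene, the REV-ERB genes had the highest levels of the 7 in control hepatocyte nuclei and Npas2 the lowest. In cachectic 8025 animals the order by level per kb was Nr1d1 (6.31 CPM per kb), Nr1d2 (5.20), Nfil3 (4.80), Rora (1.44), Cry1 (0.488), Arntl (0.455) and Npas2 (0.0237). In PBS animals of the 8025 cohort, Nr1d1 stood at 18.7 CPM per kb, Nr1d2 at 7.92, Rora at 0.935, Nfil3 at 0.906, Cry1 at 0.505, Arntl at 0.0746 and Npas2 at 0.00485. In cachectic C26 animals Nfil3 led with 4.61 CPM per kb, before Nr1d2 (4.17) and Nr1d1 (2.33), and Arntl (1.02) lay beside Cry1 (1.15). In C26 PBS animals Nr1d1 (8.18 CPM per kb) and Nr1d2 (7.07) led, and Arntl stood at 0.184. In cachectic C26 animals each gene overlapped the next in this order across animals, except Arntl and Npas2.

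**Figure D1:**
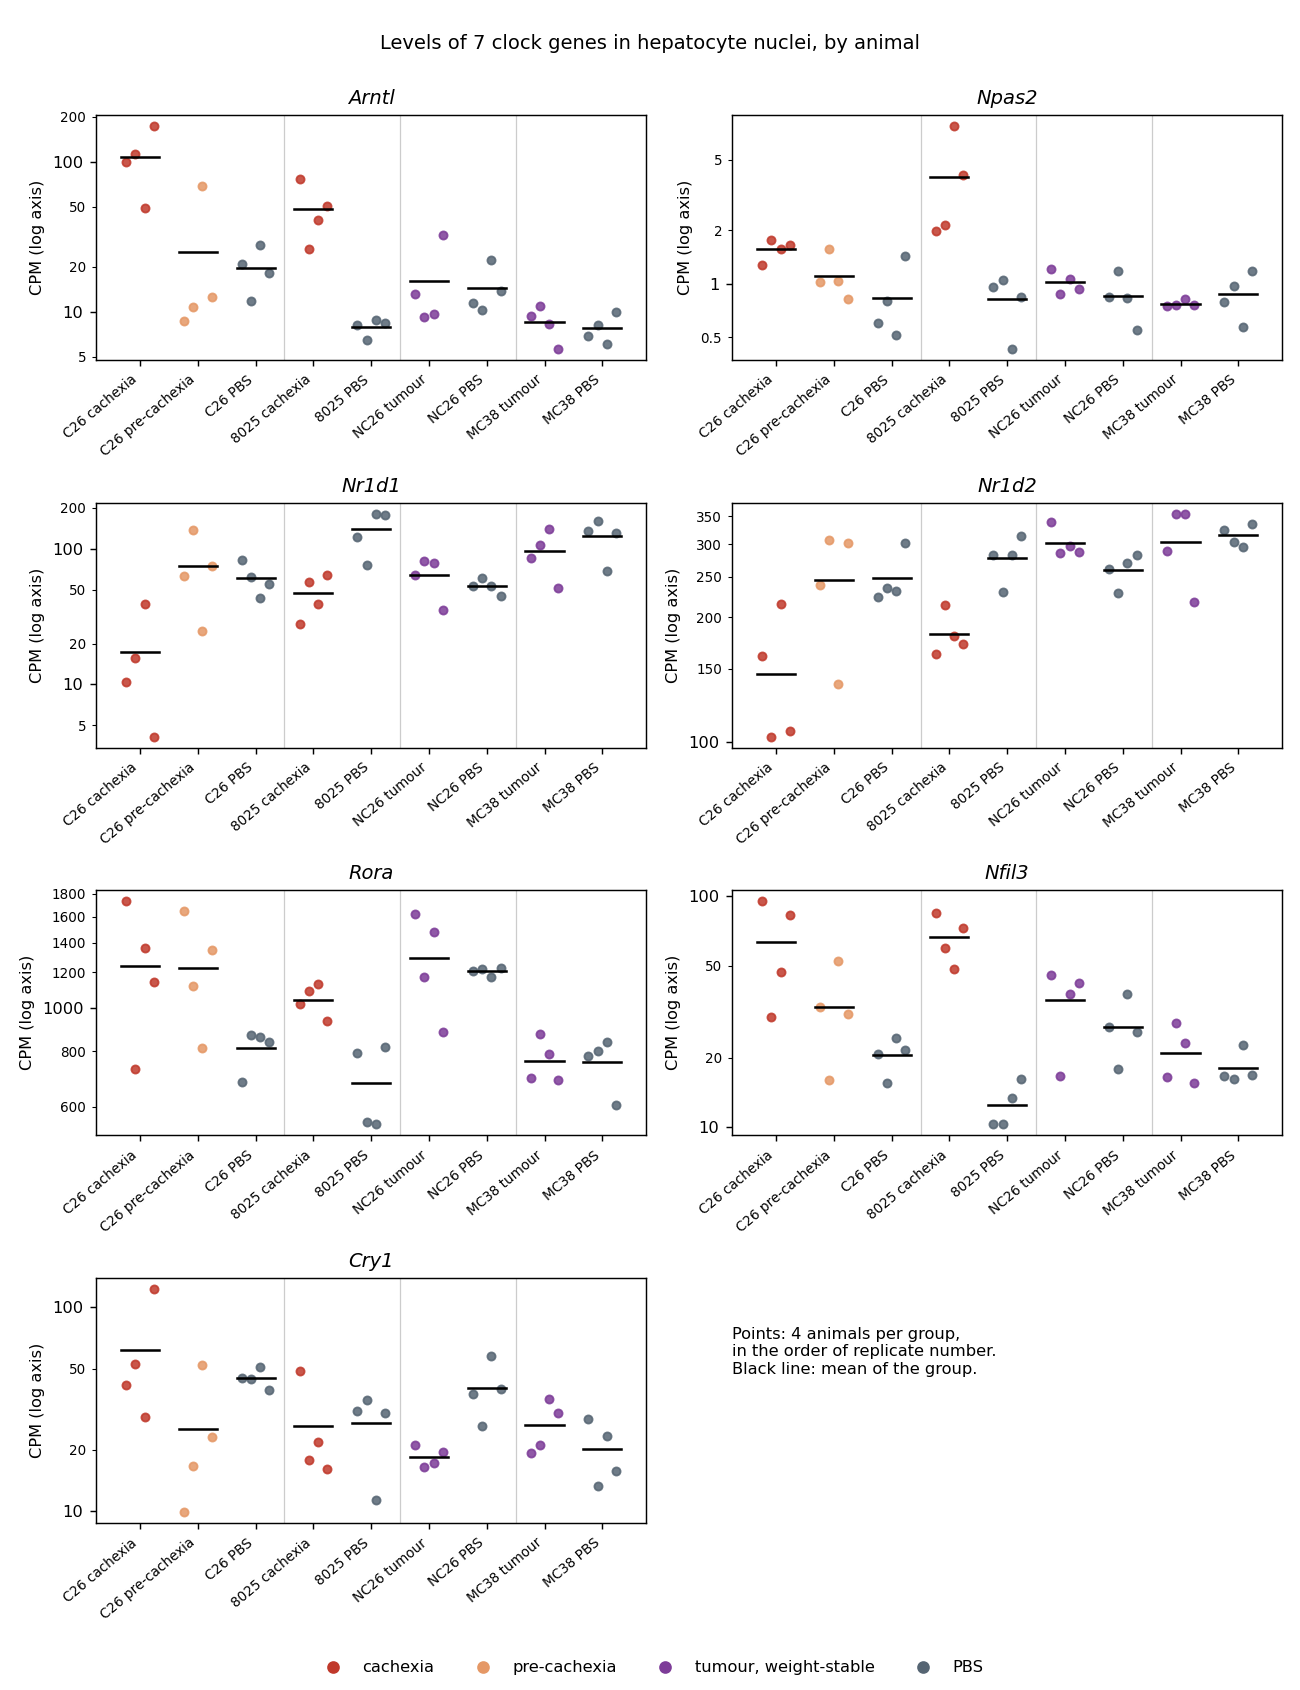
Level of each gene in hepatocyte nuclei (CPM, log axis) in 9 groups; points are 4 animals per group and the black line is the group mean. Arntl and Nfil3 lie above their PBS animals in cachectic animals of both cohorts and Nr1d1 below, while Cry1 overlaps its controls there.

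In cachexia, hepatocyte nuclei held more Arntl and Nfil3 RNA and less Nr1d1 and Nr1d2 RNA than those of PBS animals, in both cohorts. In C26 cachexia 5 of the 7 genes were called, 3 higher and 2 lower, where 22.2% of all 13274 genes tested were called (12.2% higher and 10.0% lower). In 8025 cachexia 6 of the 7 were called, 4 higher and 2 lower, against 29.3% of all genes (16.2% higher and 13.1% lower). The median size of the log2 fold change over the 7 genes was 0.90 in C26 cachexia and 1.56 in 8025 cachexia, against 0.32 and 0.34 over all genes tested. Cachectic and PBS animals did not overlap in 4 of the 7 genes in the C26 cohort (20.8% of all genes) and in 6 of the 7 in the 8025 cohort (28.1% of all genes).

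Arntl, whose protein is the common partner in the activating pair, had the largest fold of the 7 genes in hepatocyte nuclei of both cohorts. Its levels in hepatocyte nuclei were 99.0, 112, 49.2 and 173 CPM in cachectic C26 animals, against 20.8, 11.8, 27.8 and 18.1 CPM in C26 PBS animals. They were 76.9, 26.1, 40.6 and 50.7 CPM in cachectic 8025 animals, against 8.20, 6.43, 8.83 and 8.36 CPM in 8025 PBS animals. Every cachectic animal lay above every PBS animal of its cohort, and the cachectic animals differed among themselves by several fold while the 8025 PBS animals were tightly grouped. The fold was 5.52 in C26 cachexia (log2 fold change 2.47, SE 0.50, edgeR adjusted p = 5.8e-04) and 6.14 in 8025 cachexia (log2 2.62, SE 0.52, adjusted p = 3.0e-04).

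Npas2, which can take the place of CLOCK in the pair, rose in hepatocyte nuclei of 8025 cachexia and missed the threshold in C26 cachexia. It stood at 1.99, 2.16, 7.76 and 4.13 CPM in cachectic 8025 animals, against 0.955, 1.05, 0.431 and 0.848 CPM in 8025 PBS animals. In the C26 cohort it stood at 1.28, 1.77, 1.58 and 1.65 CPM in cachectic animals, against 0.606, 0.806, 0.514 and 1.43 CPM in PBS animals. The 8025 groups were apart, and in the C26 cohort 1 PBS animal reached into the cachectic range. The fold was 4.68 in 8025 cachexia (log2 2.23, SE 0.36, adjusted p = 2.3e-05), and in C26 cachexia the log2 difference was 0.90 (SE 0.35, adjusted p = 0.064) by the edgeR test. Without PBS animal 4 of the C26 cohort that difference was 1.27 and was called.

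Nr1d1, whose protein represses Arntl through elements like the one shown above, moved the other way. It stood at 10.5, 15.7, 39.2 and 4.13 CPM in cachectic C26 animals, against 82.9, 62.1, 43.4 and 55.2 CPM in C26 PBS animals. It stood at 27.8, 56.9, 39.4 and 63.8 CPM in cachectic 8025 animals, against 121, 75.3, 181 and 178 CPM in 8025 PBS animals. Again no cachectic animal overlapped a PBS animal of its cohort. The cachectic C26 animal with the least Nr1d1 had the most Arntl, and the one with the most Nr1d1 had the least Arntl. In the 8025 cohort the cachectic animal with the least Nr1d1 also had the most Arntl. Cachectic 8025 animal 4, with the most Nr1d1, was not the lowest in Arntl (50.7 CPM, against 26.1 CPM in animal 2). Nr1d1 was 3.51-fold lower in C26 cachexia (log2 -1.81, SE 0.47, edgeR adjusted p = 0.0059) and 2.96-fold lower in 8025 cachexia (log2 -1.56, SE 0.47, adjusted p = 0.011). Without cachectic C26 animal 3 the log2 fold change of Nr1d1 was -2.62. Thra, the neighbour that overlaps Nr1d1 on the other strand, averaged 8.04 ± 2.30 CPM in cachectic and 5.98 ± 1.27 CPM in PBS animals of the C26 cohort in hepatocyte nuclei (SD, n = 4 each), and the ranges overlapped. In whole liver nuclei Thra averaged 8.24 ± 0.425 CPM in cachectic and 8.57 ± 2.4 CPM in C26 PBS animals. In the 8025 cohort it averaged 10.4 ± 1.05 CPM in cachectic and 8.95 ± 1.92 CPM in PBS animals in hepatocyte nuclei, and 11.8 ± 1.10 and 12.5 ± 5.23 CPM in whole liver nuclei. The part of shared reads was not tested.

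Nr1d2, the gene of REV-ERB-beta, also fell in both cohorts. It stood at 161, 103, 215 and 106 CPM in cachectic C26 animals, against 223, 235, 231 and 302 CPM in C26 PBS animals. It stood at 163, 214, 180 and 172 CPM in cachectic 8025 animals, against 283, 230, 283 and 314 CPM in 8025 PBS animals. The groups were apart in both cohorts, by a narrow gap in each. Nr1d2 was 1.69-fold lower in C26 cachexia (log2 -0.76, SE 0.20, edgeR adjusted p = 0.0071) and 1.52-fold lower in 8025 cachexia (log2 -0.61, SE 0.20, adjusted p = 0.023). With only the libraries of the C26 cohort in the fit, the C26 call was lost (log2 -0.80, adjusted p = 0.06). The 8025 call was lost when cachectic animal 1, 3 or 4 or PBS animal 4 was left out, with log2 fold changes of -0.70 to -0.55 over all 8 ways of leaving out 1 animal. A fit with the replicate number as a block also lost the 8025 call.

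Rora, which encodes the activating receptor that competes with the REV-ERB proteins for the same element, rose in both cohorts, and both calls hung on single animals. It stood at 1730, 729, 1360 and 1140 CPM in cachectic C26 animals, against 682, 870, 861 and 838 CPM in C26 PBS animals, where the groups overlapped. It stood at 1020, 1090, 1130 and 934 CPM in cachectic 8025 animals, against 792, 556, 549 and 819 CPM in 8025 PBS animals, with no overlap. The fold was 1.53 in C26 cachexia (log2 0.61, SE 0.21, edgeR adjusted p = 0.034) and 1.54 in 8025 cachexia (log2 0.62, SE 0.21, adjusted p = 0.025). In the C26 cohort, leaving out any 1 of the 8 animals except cachectic animal 2 ended the call (log2 0.38 to 0.78), and so did a fit of that cohort alone (log2 0.57, adjusted p = 0.15). A fit with the replicate number as a block also ended the C26 call. In the 8025 cohort, leaving out cachectic animal 2 or 3 or PBS animal 2 or 3 ended it (log2 0.53 to 0.72).

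Among the known targets of the element, Nfil3 rose in both cohorts and Cry1 was called in neither. Nfil3 stood at 95, 29.9, 47.1 and 82.8 CPM in cachectic C26 animals, against 20.8, 15.6, 24.4 and 21.5 CPM in C26 PBS animals. It stood at 84.6, 59.9, 48.2 and 72.6 CPM in cachectic 8025 animals, against 10.3, 10.3, 13.4 and 16.2 CPM in 8025 PBS animals. The groups were apart in both cohorts, widely in the 8025 cohort. The fold of Nfil3 was 3.10 in C26 cachexia (log2 1.63, SE 0.33, edgeR adjusted p = 5.5e-04) and 5.32 in 8025 cachexia (log2 2.41, SE 0.34, adjusted p = 4.2e-06).

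Cry1, the late repressor of the activating pair, stood at 41.8, 52.6, 28.8 and 123 CPM in cachectic C26 animals, against 44.8, 44.4, 50.8 and 39.1 CPM in C26 PBS animals. It stood at 48.6, 17.7, 21.8 and 16.0 CPM in cachectic 8025 animals, against 31.1, 35.0, 11.3 and 30.4 CPM in 8025 PBS animals. The groups overlapped in both cohorts, and 1 cachectic animal lay above the rest in each. The log2 difference was 0.46 (SE 0.42, edgeR adjusted p = 0.46) in C26 cachexia and -0.06 (SE 0.42) in 8025 cachexia, with SDs of 42.2 and 15.3 CPM among the cachectic animals. Leaving out 1 animal moved the C26 difference of Cry1 from -0.15, without cachectic animal 4, to 0.68, without cachectic animal 3, and the 8025 difference from -0.56 to 0.11.

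**Figure D2:**
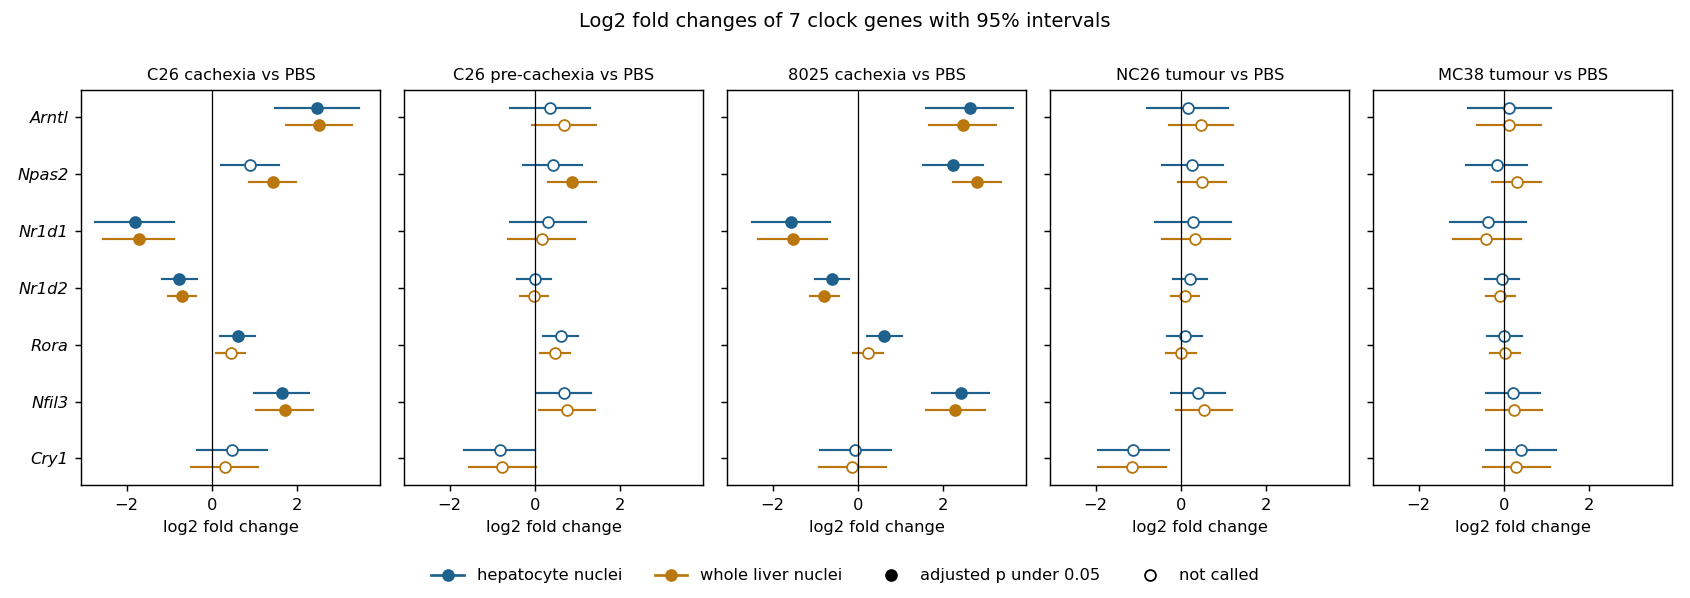
Log2 fold change of each gene against the PBS animals of its cohort (x axis; bars are 95% intervals) in hepatocyte and whole liver nuclei; filled points have an edgeR adjusted p under 0.05. In both cachexia panels Arntl and Nfil3 lie to the right of 0 and Nr1d1 and Nr1d2 to the left, and no point is filled in the 2 weight-stable panels.

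Over the 9 groups of hepatocyte nuclei, the mean level of Arntl ran from 108 ± 50.9 CPM in cachectic C26 animals over 48.6 ± 21.4 CPM in cachectic 8025 and 25.1 ± 29.1 CPM in pre-cachexia animals down to 7.78 ± 1.73 CPM in MC38 PBS animals (SD, n = 4 each), and each group overlapped the next. For Nr1d1 the highest mean was in 8025 PBS animals (139 ± 50.6 CPM) and the lowest were in cachectic 8025 (47.0 ± 16.4 CPM) and cachectic C26 animals (17.4 ± 15.3 CPM), again with overlap between neighbours. Nr1d2 was also lowest in the cachectic groups, with 182 ± 22.6 CPM in 8025 and 146 ± 52.7 CPM in C26 animals, and highest in MC38 PBS animals (315 ± 18.5 CPM). The cachectic groups were the highest of the 9 for Nfil3, at 66.3 ± 15.7 CPM in 8025 and 63.7 ± 30.3 CPM in C26 animals, and for Npas2, at 4.01 ± 2.68 and 1.57 ± 0.21 CPM. Npas2 in cachectic 8025 animals did not overlap the next group.

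Rora and Cry1 did not follow that order. The highest mean of Rora was in NC26 tumour animals, at 1290 ± 328 CPM, beside cachectic C26 (1240 ± 420 CPM), pre-cachexia (1230 ± 353 CPM) and NC26 PBS animals (1210 ± 28 CPM). The lowest was in 8025 PBS animals, at 679 ± 147 CPM. For Cry1 the highest mean was in cachectic C26 animals, at 61.6 ± 42.2 CPM, and the lowest in NC26 tumour animals, at 18.5 ± 2.12 CPM, with overlap between all neighbours.

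The ratio of Arntl to Nr1d1 counts within a library does not depend on library size. It is not corrected for gene length, and Arntl spans 107 kb against 7.45 kb for Nr1d1, so a log2 ratio of 0 does not mark equal levels. Per kb, hepatocyte nuclei of cachectic C26 animals averaged 2.33 CPM of Nr1d1 and 1.02 CPM of Arntl. In hepatocyte nuclei the log2 ratio averaged 2.95 ± 2.07 in cachectic and -1.66 ± 0.75 in PBS animals of the C26 cohort (SD, n = 4 each). It averaged 0.01 ± 1.08 in cachectic and -4.05 ± 0.41 in PBS animals of the 8025 cohort. All 4 cachectic C26 animals, at 0.33 to 5.38, had more Arntl than Nr1d1 counts, and the cachectic 8025 animals lay at -1.12 to 1.47. Of the 28 other hepatocyte libraries, the ratio was above 0 in 1, that of pre-cachexia animal 3, at 1.48. The whole liver libraries gave means of 2.54 in cachectic and -1.74 in PBS animals of the C26 cohort, and of 0.82 in cachectic and -3.10 in PBS animals of the 8025 cohort.

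**Figure D3:**
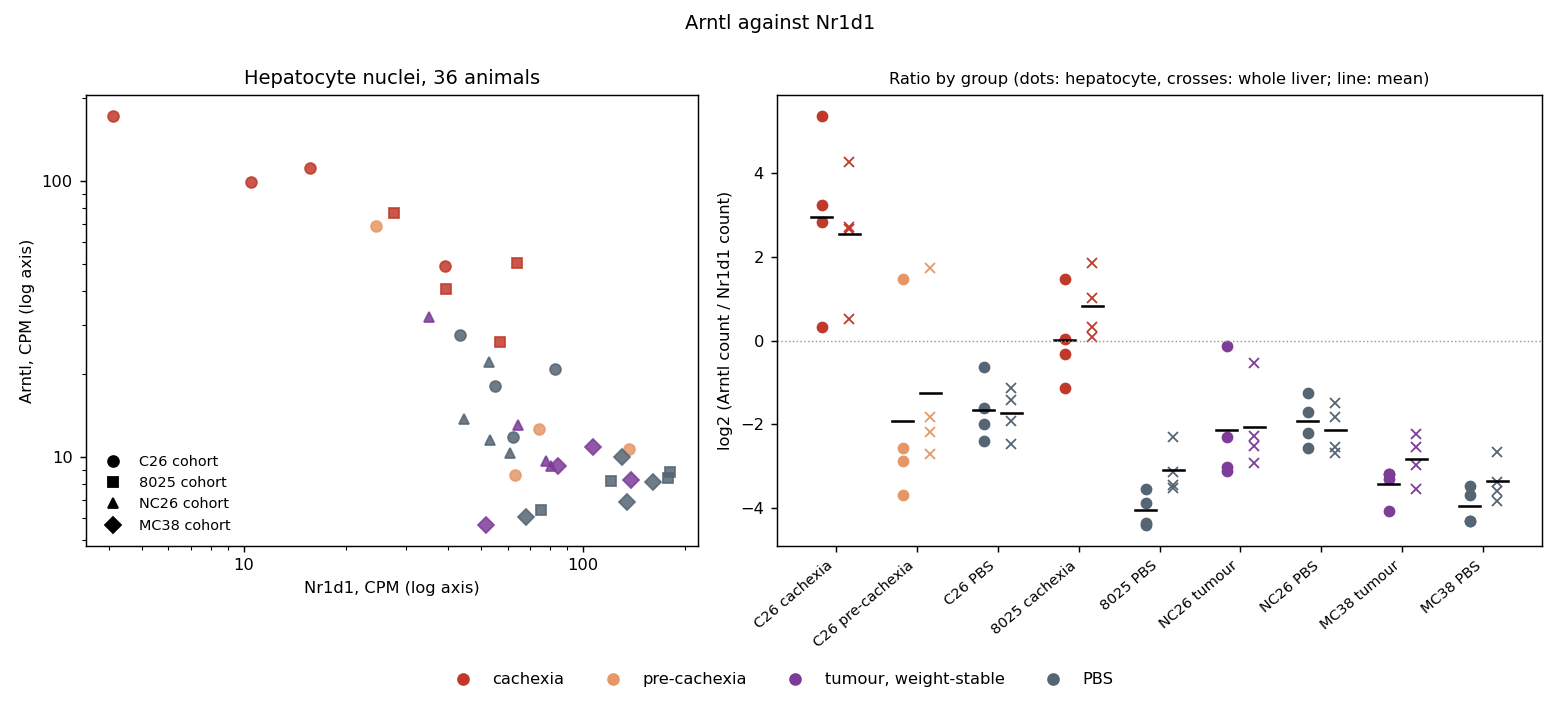
Left, Arntl against Nr1d1 in 36 hepatocyte libraries (CPM, log axes; colour is treatment, shape is cohort). Right, log2 ratio of Arntl to Nr1d1 counts by group, dots for hepatocyte and crosses for whole liver nuclei, lines at the means. Cachectic C26 animals lie at 0.33 to 5.38 in hepatocyte nuclei, and the PBS animals of all cohorts lie below 0.

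Before cachexia, none of the 7 genes was called in hepatocyte nuclei of C26 animals, where 7.72% of all genes were (1025 genes, and 333 to 1626 when 1 animal was left out, fewest without pre-cachexia animal 1 and most without PBS animal 1). Rora and Nfil3, 2 of the 7, had an unadjusted p under 0.05 in edgeR, as did 3142 of all 13274 genes, and DESeq2 called 0 of the 7. This comparison and the C26 cachexia comparison share their 4 PBS animals. Pre-cachexia animals had 8.61, 10.7, 68.7 and 12.6 CPM of Arntl and 63.0, 137, 24.6 and 74.4 CPM of Nr1d1, and animal 3 was highest of the 4 in Arntl and lowest in Nr1d1. In the same animal Nr1d2 was lowest of the 4, at 138 CPM where the others had 239 to 306, and Nfil3 and Cry1 were highest, at 52.5 and 51.9 CPM. Rora stood at 1650, 1120, 815 and 1350 CPM, Cry1 at 9.88, 16.7, 51.9 and 23.0 CPM and Nfil3 at 33.1, 16.0, 52.5 and 31.0 CPM in the 4 pre-cachexia animals. Cry1 was thus below all C26 PBS animals in 3 of the 4. The log2 differences from PBS animals were 0.35 for Arntl (edgeR adjusted p = 0.71), 0.42 for Npas2 (0.51), 0.30 for Nr1d1 (0.74), -0.01 for Nr1d2 (0.98), 0.60 for Rora (0.073), 0.68 for Nfil3 (0.20) and -0.82 for Cry1 (0.23), adjusted p in parentheses. Without animal 3 Rora was called higher (log2 0.75, SE 0.21, adjusted p = 0.02), Cry1 was called lower (log2 -1.44, SE 0.42, adjusted p = 0.027), and Arntl lay below its controls (log2 -0.88, SE 0.40, adjusted p = 0.15).

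Set directly against pre-cachexia animals, cachectic C26 animals had more Arntl (4.34-fold, log2 2.12, SE 0.49, edgeR adjusted p = 0.0055), less Nr1d1 (4.32-fold, log2 -2.11, SE 0.48, adjusted p = 0.0040) and less Nr1d2 (1.68-fold, log2 -0.75, SE 0.20, adjusted p = 0.017). These 3 of the 7 genes were called, against 9.09% of all genes, although the groups overlapped in each through pre-cachexia animal 3 (they did not overlap in 12.7% of all genes). Without that animal Nfil3 (log2 1.26, SE 0.34, adjusted p = 0.014) and Cry1 (log2 1.90, SE 0.43, adjusted p = 0.0036) were also called higher, and the log2 difference of Arntl was 3.35 (adjusted p = 1.2e-05). With only the libraries of the C26 cohort in the fit, Nr1d1 alone was called, and the calls of Arntl (log2 2.10, edgeR adjusted p = 0.058) and Nr1d2 (log2 -0.77, adjusted p = 0.13) were lost. The Nr1d2 call was also lost without cachectic animal 2 or 4 or pre-cachexia animal 2 or 4 (log2 -1.01 to -0.62), and without cachectic animal 3 the Nr1d1 difference was -2.91. Rora had a log2 difference of 0.01 (SE 0.21, adjusted p = 0.99) between cachectic and pre-cachexia animals, whose means were 1240 and 1230 CPM.

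In the weight-stable tumour cohorts none of the 7 genes was called by edgeR or DESeq2 in either kind of nuclei. Only Cry1 in the NC26 cohort had an unadjusted p under 0.05. Among all genes of that cohort, 1579 of 13274 in hepatocyte and 1679 of 13738 in whole liver nuclei had one. In the NC26 cohort 0.324% of all genes were called in hepatocyte nuclei, and in the MC38 cohort 0. The 43 NC26 genes became 4 without PBS animal 2 and 94 without tumour animal 2, the lowest and highest counts when 1 animal was left out. For whole liver nuclei the shares of the NC26 and MC38 cohorts were 0.728% and 0. For the MC38 cohort, where edgeR called no gene at all, 572 of 13274 genes had an unadjusted p under 0.05 and DESeq2 called 6. In whole liver nuclei 790 of 13738 genes did, and DESeq2 called 14. Arntl stood at 13.1, 9.26, 9.66 and 32.3 CPM in NC26 tumour animals, against 11.5, 10.3, 22.1 and 13.7 CPM in NC26 PBS animals, and at 5.66 to 10.9 CPM in MC38 tumour animals, against 6.08 to 10.0 CPM in MC38 PBS animals. Nr1d1 stood at 35.1 to 80.6 CPM in NC26 tumour animals, against 44.6 to 60.9 CPM in NC26 PBS animals. It stood at 51.7 to 139 CPM in MC38 tumour animals, against 68.0 to 161 CPM in MC38 PBS animals. Nfil3 stood at 16.7 to 45.5 CPM in NC26 tumour animals, against 17.8 to 37.7 CPM in NC26 PBS animals, and at 15.6 to 28.2 CPM in MC38 tumour animals, against 16.2 to 22.6 CPM in MC38 PBS animals. All these ranges overlapped.

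Cry1 and Nr1d2 were the 2 of the 7 genes whose NC26 groups did not overlap in hepatocyte nuclei (7.73% of all genes did not). Cry1 stood at 21.0, 16.4, 17.2 and 19.4 CPM in NC26 tumour animals, against 37.6, 26.1, 57.6 and 39.8 CPM in NC26 PBS animals. The log2 difference of Cry1 was -1.12 (SE 0.42, unadjusted p = 0.013, edgeR adjusted p = 0.28). In the whole liver libraries of the same animals Cry1 stood at 17.1, 17.7, 16.0 and 14.6 CPM in NC26 tumour animals, against 33.8, 27.3, 50.4 and 34.4 CPM in NC26 PBS animals, again apart (8.15% of all genes were). Nr1d2 was higher in the 4 NC26 tumour animals (286 to 339 CPM) than in the PBS animals (228 to 283 CPM), with a log2 difference of 0.21 and an adjusted p of 0.70.

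The difference between the effect of a cachectic tumour and that of the weight-stable tumour of the same strain was tested directly. For 8025 against MC38 it was called for Arntl (log2 2.48, SE 0.71, edgeR adjusted p = 0.028), Npas2 (log2 2.4, SE 0.51, adjusted p = 0.0041) and Nfil3 (log2 2.20, SE 0.47, adjusted p = 0.0040) in hepatocyte nuclei, 3 of the 7 genes where 7.21% of all genes were called. Not called there by edgeR were Nr1d1 (log2 -1.20, adjusted p = 0.27), Nr1d2 (log2 -0.56, adjusted p = 0.24), Rora (log2 0.61, adjusted p = 0.21) and Cry1 (log2 -0.46, adjusted p = 0.70). The Arntl call was lost without 8025 cachectic animal 1, 8025 PBS animal 2, MC38 tumour animal 3 or 4 or MC38 PBS animal 4 (log2 2.16 to 2.67). For C26 against NC26 none of the 7 was called in hepatocyte nuclei by edgeR, against 1.89% of all genes. An unadjusted p under 0.05 was found for 5 of the 7, and for 2036 of all 13274 genes. DESeq2 called 3 of the 7, and its share of all genes is not given here. The differences of Arntl (log2 2.31, adjusted p = 0.073), Nr1d1 (log2 -2.10, adjusted p = 0.089) and Nr1d2 (log2 -0.97, adjusted p = 0.069) missed the threshold. Each of these was called without certain single animals, Arntl without NC26 tumour animal 4, Nr1d1 without cachectic animal 3, and Nr1d2 without cachectic animal 3 or C26 PBS animal 1. The C26 and NC26 effects differed in whole liver nuclei for Arntl (log2 2.05, SE 0.54, adjusted p = 0.030) and Nr1d1 (log2 -2.06, SE 0.58, adjusted p = 0.044), 2 of the 7 genes against 3.40% of all. Leaving out 1 of the 16 animals ended the Arntl call in 6 cases (log2 1.66 to 2.49) and the Nr1d1 call in 13 (log2 -2.57 to -1.83). The 8025 and MC38 effects differed there for Arntl (log2 2.33), Npas2 (log2 2.49), Nfil3 (log2 2.05) and Nr1d2 (log2 -0.70), 4 of the 7 genes against 13.5% of all, and the Nr1d2 call was lost in 14 of 16 cases. The difference of Nr1d1 was not called in whole liver nuclei either (log2 -1.13, edgeR adjusted p = 0.19).

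The effects of C26 and 8025 cachexia were not called different for any of the 7 genes in hepatocyte nuclei, where 0.957% of all genes were, and DESeq2 called 0. Npas2 had the most unequal effects of the 7 (log2 difference -1.33, edgeR adjusted p = 0.20). It was the 1 gene of the 7 with an unadjusted p under 0.05, as were 1863 of all 13274 genes. Whole liver nuclei held more counts of this gene, and there the Npas2 effect was smaller in C26 than in 8025 cachexia (log2 -1.37, SE 0.40, edgeR adjusted p = 0.033), 1 of the 7 genes against 6.57% of all. That call was lost without C26 cachectic animal 2 or 4, C26 PBS animal 4, 8025 cachectic animal 3 or 8025 PBS animal 2 or 4 (log2 -1.51 to -1.09).

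Whole liver nuclei of the same animals gave the same directions for the called genes. In C26 cachexia 5 of the 7 genes were called there, against 22.1% of all 13738 genes tested, and in 8025 cachexia also 5, against 36.6%. Groups did not overlap in 5 of the 7 genes in either cohort, where 25.5% and 27.4% of all genes did not. Cachexia against pre-cachexia gave 3 called genes of 7 there, Arntl, Nr1d1 and Nr1d2, against 11.6% of all. Arntl stood at 65.7, 78.5, 38.4 and 138 CPM in whole liver nuclei of cachectic C26 animals, against 14.2, 9.33, 17.6 and 15.1 CPM in PBS animals (log2 2.51, edgeR adjusted p = 1.9e-05). It stood at 74.5, 41.1, 52.5 and 61.8 CPM in cachectic 8025 animals, against 10.2, 8.19, 13.2 and 10.5 CPM in PBS animals (log2 2.45, adjusted p = 1.5e-05). As in hepatocyte nuclei, no cachectic animal overlapped its controls in Arntl. Nr1d1 was lower in both cohorts (log2 -1.72, adjusted p = 0.0034 in C26 cachexia and log2 -1.53, adjusted p = 0.0043 in 8025 cachexia), and Nr1d2 too (log2 -0.70, adjusted p = 0.0029 and log2 -0.79, adjusted p = 5.5e-04). Nfil3 was higher in both (log2 1.70, adjusted p = 4.3e-04 and log2 2.28, adjusted p = 6.7e-06).

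Rora was not called in whole liver nuclei (log2 0.44, adjusted p = 0.072 in C26 cachexia and log2 0.23, adjusted p = 0.33 in 8025 cachexia), and neither was Cry1 (log2 0.30 and -0.13). Npas2 was called in both cohorts there. It stood at 3.02, 2.54, 3.02 and 2.33 CPM in cachectic C26 animals, 1.72, 2.41, 1.55 and 1.77 CPM in pre-cachexia animals and 0.913, 0.800, 0.925 and 1.47 CPM in C26 PBS animals. No pre-cachexia animal overlapped a PBS animal (17.3% of all genes did not overlap), and Npas2 was the 1 gene of the 7 called in whole liver nuclei before cachexia (log2 0.87, SE 0.29, edgeR adjusted p = 0.041; 12.8% of all genes were called). That call was lost without the filter on low counts and in 6 of 8 ways of leaving out 1 animal (log2 0.71 to 1.08), all but pre-cachexia animal 3 and PBS animal 4. In cachexia the log2 fold change of Npas2 was 1.42 (adjusted p = 4.0e-04) in the C26 cohort. In the 8025 cohort Npas2 stood at 5.10, 5.31, 11.0 and 7.84 CPM in cachectic animals, against 1.2, 0.936, 1.07 and 0.975 CPM in PBS animals (log2 2.79, adjusted p = 6.4e-09).

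Between the nuclei themselves, in PBS animals of all 4 cohorts, hepatocyte nuclei had more Nfil3 than whole liver nuclei (log2 0.45, SE 0.17, edgeR adjusted p = 0.026), 1 of the 7 genes where 50.9% of all genes differed. Both libraries of an animal come from the same liver, and with the animal as a block 4 of the 7 genes were higher in hepatocyte nuclei, where 69.6% of all genes differed. These were Nfil3, Nr1d1 (log2 0.34, SE 0.07, adjusted p = 1.4e-04), Nr1d2 (log2 0.14, SE 0.03, adjusted p = 4.4e-05) and Cry1 (log2 0.12, SE 0.04, adjusted p = 0.015). The effect of cachexia was not called different between hepatocyte and whole liver nuclei for any of the 7 genes in either cohort (log2 -0.56 to 0.41), where 0 of all genes were called in C26 and 0.0427% in 8025 cachexia. None of the 7 had an unadjusted p under 0.05 there, and DESeq2 called 0 of them. Of all 14054 genes, 295 had an unadjusted p under 0.05 in C26 cachexia, and DESeq2 called 1. With the animal as a block, the effect on Rora was larger in hepatocyte nuclei of 8025 animals (log2 0.43, SE 0.09, edgeR adjusted p = 0.012), 1 of the 7 genes. That block raised the share of all genes called to 1.35% in 8025 and 0.441% in C26 cachexia (190 and 62 of 14054).

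The hepatocyte label was checked against marker genes. Of all genes tested in hepatocyte nuclei, 12.2% were called higher and 10.0% lower in C26 cachexia, and 16.2% and 13.1% in 8025 cachexia. Before cachexia 7.72% were called in either direction. All 8 hepatocyte markers were present in every group, with a summed level of 11800 to 28500 CPM per library, and 1 of the 8 was lower in C26 cachexia, while 1 was higher and 1 lower in 8025 cachexia. Their sum was 18200 to 28500 CPM in cachectic, 11800 to 15000 CPM in pre-cachexia and 15000 to 18600 CPM in PBS animals of the C26 cohort, so it was lowest before cachexia, and 13500 to 17100 CPM in cachectic and 13900 to 15500 CPM in PBS animals of the 8025 cohort. Transcripts of other cells were also present in the bead-bound nuclei. Of 6 macrophage markers, 5 were higher in cachectic C26, pre-cachexia and cachectic 8025 animals. Their sum was 62.2 to 99.1 CPM in cachectic, 66.3 to 83.6 CPM in pre-cachexia and 37.6 to 60.9 CPM in PBS animals of the C26 cohort, and 93.8 to 117 CPM in cachectic and 37.0 to 44.9 CPM in PBS animals of the 8025 cohort. The 6 monocyte and neutrophil markers summed to 7.63 to 11.6 CPM in cachectic and 0.761 to 1.38 CPM in PBS animals of the 8025 cohort. Ly6c2 was at 0 in these cachectic and Retnlg at 0 in these PBS animals. Only 2 of the 6 passed the filter on low counts, and both were called higher in 8025 cachexia. A gene can pass that filter through the group where it is high, so these 2 calls add no support. In the C26 cohort the sum of the 6 was 1.75 to 3.58 CPM in cachectic and 0.916 to 2.31 CPM in PBS animals, in which S100a8, S100a9 and Retnlg were at 0. Of 6 endothelial markers, 1 was higher in C26 and 2 in 8025 cachexia. They summed to 264 to 396 CPM in cachectic and 164 to 276 CPM in PBS animals of the C26 cohort, and to 178 to 269 CPM in cachectic and 103 to 167 CPM in PBS animals of the 8025 cohort. Of 5 bile duct markers, 1 was higher in C26 and 4 in 8025 cachexia. They summed to 8.93 to 14.2 CPM in cachectic and 5.54 to 7.83 CPM in PBS animals of the C26 cohort, and to 9.55 to 41.1 CPM in cachectic and 3.42 to 5.76 CPM in PBS animals of the 8025 cohort. Of 4 T and NK cell markers, 1 was called in 8025 cachexia, and their sum was 17.5 to 107 CPM in cachectic and 6.15 to 27.0 CPM in PBS animals of that cohort. Of 6 stellate cell markers, 1 was higher in C26 cachexia, and 1 was higher and 1 lower in 8025 cachexia. They summed to 79.7 to 105 CPM in cachectic and 82.1 to 116 CPM in PBS animals of the C26 cohort. In the 8025 cohort they summed to 46.8 to 59.7 CPM in cachectic and 83.1 to 108 CPM in PBS animals, lower without overlap. Taken singly, 28.1% of all genes did not overlap in that comparison. Of 4 B cell markers 2 were tested, and edgeR and DESeq2 called 0 of them in either cachexia comparison. An unadjusted p under 0.05 was found for 1 in 8025 cachexia and 0 in C26 cachexia, and for 5305 and 4600 of all 13274 genes. The part of these cells in the changes of the 7 genes was not tested.

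Control animals of the strains also differed. In PBS animals, 8 of each strain, 5 of the 7 genes were called in hepatocyte nuclei between BALB/c and C57BL/6N, against 41.2% of all genes. BALB/c had more Arntl (log2 1.10, SE 0.35, edgeR adjusted p = 0.013), Rora (log2 0.47, SE 0.15, adjusted p = 0.011), Nfil3 (log2 0.65, SE 0.23, adjusted p = 0.024) and Cry1 (log2 0.86, SE 0.30, adjusted p = 0.021) and less Nr1d1 (log2 -1.21, SE 0.33, adjusted p = 0.0036). Arntl stood at 10.3 to 27.8 CPM in the 8 BALB/c controls and at 6.08 to 10.0 CPM in the 8 C57BL/6N controls, with no overlap (9.05% of all genes did not overlap). None of the 5 was called when only the controls of the C26 and 8025 cohorts were used, and 2 were called with only those of the NC26 and MC38 cohorts. The strains were never taken in the same cohort, so strain and cohort cannot be told apart. In whole liver nuclei 3 of the 7 genes were called, against 39.6% of all genes, and with either pair of cohorts alone none was. A single pair of cohorts set 4 animals against 4, and the share of all genes called there is not given here.

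Differences among animals of the same group were compared next. In hepatocyte nuclei, the deviations of 36 animals from their group means were compared for the 21 pairs of the 7 genes by permutation within groups, with adjustment over the 21 pairs. Nr1d1 and Nr1d2 deviated together (Pearson r 0.69, permutation adjusted p = 0.025; Spearman rho 0.46, adjusted p = 0.11). Nr1d1 and Cry1 deviated in opposite directions (r -0.65, permutation adjusted p = 0.025; rho -0.51, adjusted p = 0.045), as did Arntl and Nr1d1 (r -0.57, permutation adjusted p = 0.045; rho -0.31, adjusted p = 0.25). Arntl and Cry1 deviated together (r 0.57, permutation adjusted p = 0.030; rho 0.35, adjusted p = 0.18). These 4 pairs of 21 passed for Pearson's r.

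The 4 relations rest in part on pre-cachexia animal 3. Leaving it out, a check chosen after seeing the data, r became 0.61 for Nr1d1 and Nr1d2, -0.57 for Nr1d1 and Cry1, -0.43 for Arntl and Nr1d1 and 0.41 for Arntl and Cry1, and none of the 21 pairs passed by a permutation test (adjusted p 0.13 to 0.18 for these 4). Without the 2 animals farthest from the median of the first gene, r was 0.59, -0.54, -0.41 and 0.49 in the same order of pairs. Within the C26 and 8025 cohorts (20 animals) r was 0.74 for Nr1d1 and Nr1d2, -0.76 for Nr1d1 and Cry1, -0.69 for Arntl and Nr1d1 and 0.72 for Arntl and Cry1. Within the NC26 and MC38 cohorts (16 animals) the same pairs gave 0.53, -0.24, -0.19 and 0.08. Arntl and Nfil3 had r 0.56 (permutation adjusted p = 0.053) with rho 0.55 (adjusted p = 0.045) and similar values in both sets of cohorts, 0.57 and 0.54. Nr1d2 and Rora, which moved in opposite directions in cachexia, deviated together within groups. Their r was 0.57 (permutation adjusted p = 0.053) with rho 0.52 (adjusted p = 0.045), and r was 0.64 and 0.34 in the 2 sets of cohorts.

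**Figure D4:**
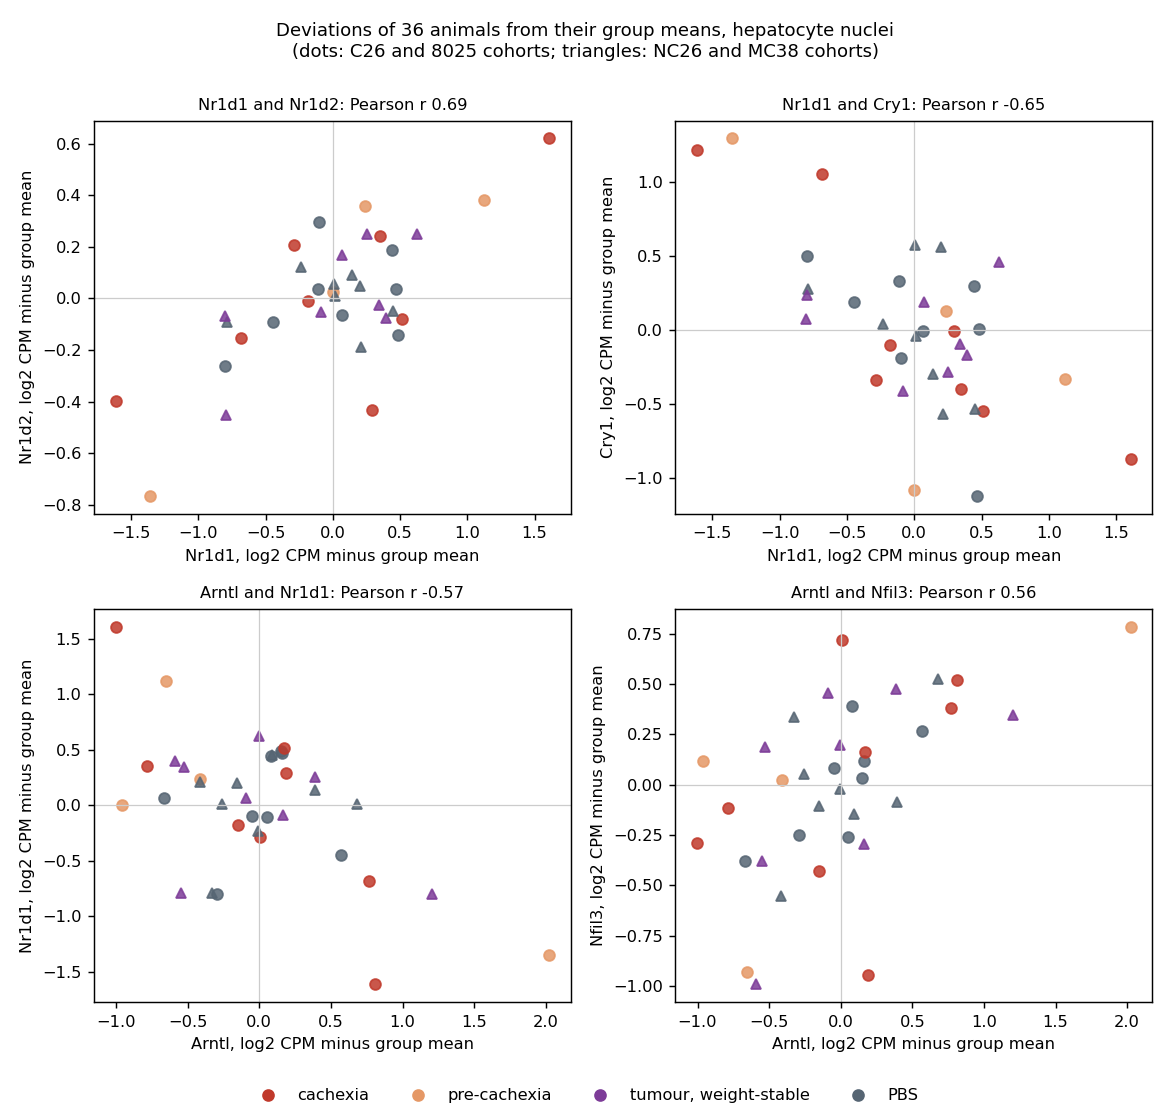
Deviation of each of 36 animals from its group mean (log2 CPM, hepatocyte nuclei) for 4 pairs of genes, with Pearson's r above each panel; dots are the C26 and 8025 cohorts and triangles the NC26 and MC38 cohorts. The pre-cachexia animal with the largest positive Arntl deviation has one of the lowest of Nr1d1, and without it none of the 21 pairs passed.

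The 2 libraries of an animal agreed closely on where it stood in its group. For 6 of the 7 genes the deviations in hepatocyte and whole liver nuclei correlated at r 0.89 to 0.98 over 36 animals, and for Npas2, the gene with the fewest counts, at 0.42 (permutation adjusted p = 0.021). For Npas2 that r was 0.74 in the C26 and 8025 cohorts and 0.01 in the NC26 and MC38 cohorts.

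Among 8820 genes above a mean of 5 CPM in hepatocyte nuclei, those whose deviations within groups were most like those of Nr1d1 over 36 libraries were Dbp (r 0.92), Tbc1d10a (0.84), Jade1 (0.79), Prdx2 (0.76) and Slc38a3 (0.73). The most opposite were Tecpr2 (-0.76), Calu (-0.72) and Clpx (-0.71). Dbp encodes a D-box activator that the BMAL1 pair drives. For Arntl the most alike were Abtb2 (r 0.77), Abcb11 (0.77), the bile salt export pump, Tspan33 (0.74), Atp2a2 (0.72) and Cars2 (0.71). The most opposite to Arntl were Rdh9 (-0.74), Olfm2 (-0.74) and Bmp7 (-0.73). These are descriptions over libraries that also differ in depth.

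The other clock genes of the negative limb and the D-box factors, 10 genes, were lower wherever they were called in hepatocyte nuclei. There 4 of the 10 fell in C26 cachexia and none rose, with a median log2 fold change of -0.54 where that of all genes was 0, and 10.0% of all genes were called lower. In 8025 cachexia 6 of the 10 fell and none rose, with a median of -0.81 against -0.02 for all genes, and 13.1% of all genes were called lower. Bhlhe41, which encodes the repressor DEC2, averaged 1.95 ± 1.03 CPM in cachectic and 9.87 ± 4.40 CPM in PBS animals of the C26 cohort (log2 -2.34, edgeR adjusted p = 3.7e-04). In the 8025 cohort Bhlhe41 averaged 1.61 ± 0.731 CPM in cachectic and 12.3 ± 1.63 CPM in PBS animals (log2 -2.96, adjusted p = 2.4e-05). Dbp averaged 21.3 ± 19.8 CPM in cachectic and 82.4 ± 19.7 CPM in PBS animals of the C26 cohort (log2 -1.95, adjusted p = 0.0024). It averaged 33.6 ± 12 CPM in cachectic and 136 ± 32.1 CPM in PBS animals of the 8025 cohort (log2 -2.01, adjusted p = 0.0012). Bhlhe41 and Dbp, both known targets of the BMAL1 pair, thus fell in both cohorts together with Nr1d1.

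Tef, a relative of Dbp, also fell in both cohorts (log2 -0.62, adjusted p = 0.0046 and log2 -1.08, adjusted p = 6.5e-06), as called by edgeR. Bhlhe40 was called in C26 cachexia (log2 -1.08, adjusted p = 0.014). Per3 (log2 -0.66, adjusted p = 0.040), Ciart, the repressor CHRONO (log2 -1.52, adjusted p = 0.0058), and Hlf (log2 -0.87, adjusted p = 0.028) were called in 8025 cachexia. Per1 (log2 0.27) and Cry2 (log2 0.31) were not called in C26 cachexia. Before cachexia and in the NC26 cohort, edgeR and DESeq2 each called 0 of the 10 and 1 had an unadjusted p under 0.05, and in the MC38 cohort none had. Of all 13274 genes, 3142 had one before cachexia, 1579 in the NC26 and 572 in the MC38 cohort. Among whole liver nuclei, 4 of the 10 fell in C26 cachexia, where 10.3% of all genes were called lower and 11.8% higher, and 7 in 8025 cachexia, where 17.9% were called lower and 18.7% higher, and Cry2 was called higher in C26 cachexia (log2 0.50, adjusted p = 0.026).

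**Figure D5:**
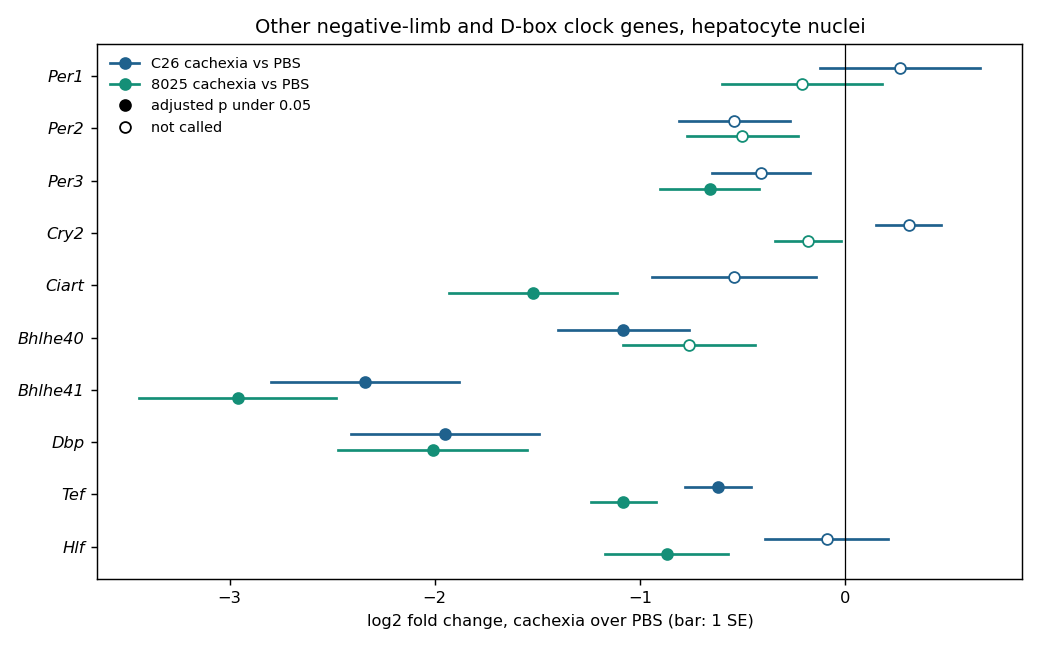
Log2 fold change of 10 further clock genes in hepatocyte nuclei, cachexia over PBS (bars are 1 SE), in C26 (blue) and 8025 (green) animals; filled points have an edgeR adjusted p under 0.05. Bhlhe41 and Dbp lie near -2 to -3 in both cohorts, and no called gene lies right of 0.

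Of 32 genes of the machinery around the loop, 6 (18.8%) were called in hepatocyte nuclei in C26 cachexia, near the 22.2% of all genes, and 5 (15.6%) in 8025 cachexia, where 29.3% of all genes were. Of 16 kinases, ubiquitin ligases and proteases of the clock, 1 fell in C26 cachexia, Gsk3b (log2 -0.49, edgeR adjusted p = 0.014), a kinase of several clock proteins. In 8025 cachexia 3 of the 16 fell, Usp2 (log2 -1.59, adjusted p = 4.5e-05), a deubiquitinase with a rhythmic transcript, Prkaa2 (log2 -0.86, adjusted p = 0.011), a subunit of AMP kinase, and Ddb1 (log2 -0.34, adjusted p = 0.019). None of the 16 rose. Of 6 genes of the corepressor complex through which REV-ERB proteins silence their targets, Tbl1xr1 rose in both cohorts (log2 0.64, adjusted p = 0.019 in C26 and log2 1.2, adjusted p = 3.6e-05 in 8025 cachexia), and Hdac3, the deacetylase of the complex, fell slightly in C26 cachexia (log2 -0.26, adjusted p = 0.049). Of 10 coactivators and NAD-related genes, 3 rose in C26 cachexia, Ppargc1a (log2 1.35, adjusted p = 0.0095), which encodes the coactivator PGC-1alpha, Ncoa2 (log2 0.52, adjusted p = 6.4e-04) and Med1 (log2 0.34, adjusted p = 0.023), and none of these 3 was called in 8025 cachexia, though their effects were not called different between the cohorts (adjusted p 0.36 for Ppargc1a, 0.074 for Ncoa2 and 0.22 for Med1). In 8025 cachexia Kat2b fell (log2 -0.45, adjusted p = 0.025). Before cachexia Gsk3b (log2 -0.53, adjusted p = 0.023) and Ep300 (log2 -0.31, adjusted p = 0.028), an acetyltransferase, were lower, 2 of the 32 (6.25%) where 7.72% of all genes were called. In the NC26 cohort edgeR and DESeq2 called 0 of these 32 genes, of which 4 had an unadjusted p under 0.05 (1579 of all 13274 genes did). In the MC38 cohort edgeR called 0, DESeq2 called 1 and 1 had an unadjusted p under 0.05 (572 of all 13274 genes did).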

How the data were processed

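RNA of hepatocyte and whole liver nuclei of 36 mice was made into stranded libraries of total RNA without selection of poly-adenylated RNA and sequenced as 50-base paired-end reads, per the labels' protocols. The submitters' processing notes list STAR 2.4.2a as aligner, mm10 as the build and DESeq2 1.24.0 with no stated role. The deposited values are raw counts per gene, taken across its counted length and including introns, per the file headers. Strand use in counting is not given in the sources used here.

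From these counts, R 4.3.3 with edgeR 4.0.16 and limma 3.58.1 fitted 9 groups in 36 libraries per fraction, and 18 groups in 72 libraries for comparisons of fractions. filterByExpr by group left 13274 genes (hepatocyte), 13738 (whole liver) and 14054 (joint). TMM factors ran from 0.900 to 1.12 (hepatocyte) and 0.905 to 1.14 (whole liver). Genes were tested by the quasi-likelihood F test with Benjamini-Hochberg adjustment over all genes, called under 0.05. A standard error is the log2 fold change divided by the square root of F. Per-kb levels divide CPM by the counted length of the gene, which equals its span except in Rora (726484 of 734461 bases). The ratio adds 0.5 to both counts. Correlations used deviations of log2 CPM (prior count 2) from group means, with Python 3.11.15, numpy 2.4.6 and scipy 1.17.1, and two-sided p-values from 100000 permutations within groups. The family was planned as 28 pairs of 8 genes and became 21 pairs of 7. Genes alike to Arntl and Nr1d1 are the 5 with the highest and the 3 with the lowest r. Other genes were named by fixed lists, those called in the comparison and the examples beside them. Scripts were tested on simulated data.

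Alternatives were DESeq2 1.42.0 and its size factors, no low-count filter, a prior count of 0.5 for correlations, each cohort alone, a replicate block, an animal block and leaving out each replicate. In the fit of all 72 libraries, both libraries of an animal have its number in the labels, and 34 of 36 hepatocyte libraries deviated most like the whole liver library of the same animal (median r 0.61). The members and lists were chosen with earlier results of these data known.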

Additional observations from a re-analysis of the deposited data

Results flagged for a closer look

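In 9 of 126 groups of 4 libraries, 1 animal stood apart from the other 3 in the level of a gene by Dixon's criterion, which chance meets in about 1 group of 20. Arntl was at 68.7 CPM in hepatocyte nuclei of pre-cachexia animal 3, where the others had 8.61 to 12.6 CPM, and at 51.4 CPM in its whole liver nuclei, where the others had 10.6 to 14.5 CPM. Arntl was also apart in NC26 tumour animal 4, at 32.3 CPM in hepatocyte nuclei (others 9.26 to 13.1 CPM) and at 35.4 CPM in whole liver nuclei (others 13.1 to 15.9 CPM). Both animals therefore stood apart in both of their libraries. In hepatocyte nuclei Nr1d2 was at 302 CPM in C26 PBS animal 4 (others 223 to 235 CPM), Rora at 682 CPM in C26 PBS animal 1 (others 838 to 870 CPM) and Nfil3 at 22.6 CPM in MC38 PBS animal 3 (others 16.2 to 16.9 CPM). In whole liver nuclei Cry1 was at 44.3 CPM in cachectic 8025 animal 1 (others 18.2 to 20.4 CPM) and Nfil3 at 14.9 CPM in NC26 tumour animal 2 (others 36.5 to 40.8 CPM).

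Effects that differed between tumours by a contrast in the edgeR fit were also marked. Between 8025 and MC38 tumours in hepatocyte nuclei these were Arntl (log2 2.48), Npas2 (log2 2.4) and Nfil3 (log2 2.20). In whole liver nuclei they were Arntl (log2 2.33), Npas2 (log2 2.49), Nfil3 (log2 2.05) and Nr1d2 (log2 -0.70). Between C26 and NC26 tumours in whole liver nuclei they were Arntl (log2 2.05) and Nr1d1 (log2 -2.06), and between C26 and 8025 cachexia in whole liver nuclei Npas2 (log2 -1.37). The tumours of each pair were in different cohorts, so tumour and cohort cannot be told apart.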

How the results depend on the processing

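Of 367 recomputed main values, mostly counts of called genes, which have no direction, 317 did not move past 1.5 times (past 1 SD for the ratio of Arntl to Nr1d1) and 50 did; the cause was not tested. Of 2324 recomputed differences of single genes, 100 lost the call of the main fit and 37 gained one. A further 89 had another sign and were called under neither setting, among them Arntl before cachexia in hepatocyte nuclei (log2 0.35, and -0.88 without pre-cachexia animal 3). In C26 and 8025 cachexia, the calls of Arntl, Nr1d1 and Nfil3 in hepatocyte nuclei held under all 13 settings each. With the libraries of its own cohort alone, C26 cachexia had 3 called genes of the 7 in hepatocyte nuclei (5 in the full fit), cachexia against pre-cachexia 1 (3), and the whole liver NC26 comparison 1 (0), Cry1. DESeq2 called 5 genes in cachexia against pre-cachexia in each kind of nuclei (3 by edgeR) and 3 in hepatocyte nuclei for C26 against NC26 effects (0). Between strains, the C26 and 8025 controls alone gave 0 and the NC26 and MC38 controls alone 2 in hepatocyte nuclei (5), and 0 and 0 in whole liver nuclei (3). Without the low-count filter, whole liver pre-cachexia had 0 (1). Without pre-cachexia animal 3, 0 of 21 pairs correlated (4).

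Leaving out 1 animal gave 2 to 5 called genes in cachexia against pre-cachexia (each kind of nuclei), 0 to 2 (hepatocyte) and 0 to 3 (whole liver) before cachexia and for C26 against NC26 effects, and 0 to 1 for C26 against 8025 effects in whole liver nuclei.

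Animals of the same replicate number deviated together at r over 0.1 in 7 of 24 pairs in hepatocyte and 3 of 24 in whole liver nuclei (medians 0.03 and -0.01). In hepatocyte nuclei of the C26 cohort, PBS and pre-cachexia animals of numbers 1 to 4 gave r 0.22, 0.15, 0.07 and 0.40. PBS and cachectic animals there gave -0.05, -0.04, -0.06 and 0.21, and pre-cachexia and cachectic animals 0.17, 0.01, -0.23 and 0.16. Whether replicate numbers pair the animals of that cohort was not tested. With the replicate number as a block, 4 genes were called in C26 and 5 in 8025 cachexia in hepatocyte nuclei. The gene lost was Rora in C26 cachexia and Nr1d2 in 8025 cachexia. This replicate block gave, for whole liver, 0 before cachexia (1), 1 for C26 against NC26 effects (2) and 0 for C26 against 8025 effects (1). The animal block gave 4 called genes between nuclei in PBS animals (1) and 1 for the 8025 effect (0). Npas2 counts of 4 to 213 per hepatocyte library limit that gene most.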
